A study of Mus musculus with 10 samples.

Results

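The B cells described here are the 4613 cells that the authors' annotation places in cluster 1, which is 10.25% of the 44986 annotated cells in 33 clusters. They were chosen by that cluster number alone. The cells come from lung tumour nodules of mice that had received an intravenous injection of KP lung adenocarcinoma cells, a transplanted line grown in syngeneic hosts. Tumour-bearing mice were treated for 11 days with the combination of SHP099 and SX682, with SHP099 alone, with SX682 alone or with vehicle, 3 mice each. SHP099 inhibits the phosphatase SHP2, which is encoded by Ptpn11 and relays receptor signals towards RAS and ERK. SX682 inhibits the chemokine receptors CXCR1 and CXCR2. The sources used here do not give the hosts' age, strain or sex, and all mice, vehicle-treated mice included, carried tumours. Live cells were enriched on magnetic beads without a sort for any cell type, and the cells of the 3 mice of a treatment were tagged by mouse, pooled and run as 1 capture. Each treatment is therefore 1 capture, treatment and capture cannot be told apart, and the p-values below measure the spread between mice that were processed together.

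B cells carry the B cell receptor, an immunoglobulin that pairs a heavy chain with a kappa or a lambda light chain and signals through CD79A and CD79B. They take up antigen through this receptor and show its peptides to CD4+ T cells on major histocompatibility complex (MHC) class II, a pair of alpha and beta chains held by the invariant chain CD74 until a peptide is loaded. A naive B cell carries IgM and IgD together, and after activation it can switch to IgG, IgA or IgE and mature into a memory or plasma cell. In tumour-bearing lung, B cells lie in the tissue, in lymphoid aggregates and in the blood of the vessels, and dissociated nodules do not separate these sources.

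The genes that mark B cells led the cluster. Cd79a reached 3163 CPM (counts of unique molecular identifiers, UMIs, scaled to a common total) in the cluster, against 33.84 CPM in all other cells, and the values were 1327 and 14.22 CPM for Ebf1, a transcription factor of the B lineage. Ighd, the constant region of IgD, had 873.4 CPM in B cells and 8.294 CPM in the other cells, and Ms4a1, which encodes CD20, had 723 CPM and 7.161 CPM. The genes lie at chr7:24897381-24902197 (Cd79a), chr11:44617317-45008091 (Ebf1), chr12:113406604-113416324 (Ighd) and chr19:11249675-11266241 (Ms4a1) in GRCm38. After every cell was thinned to 500 UMIs, Cd79a was seen in 78.71% of B cells and in 0.7323% of T cells, which should lack it. Before thinning, B cells had a median of 1010 UMIs and T cells of 1526. Of the 4613 cells, 52 (1.127%) held no UMI of 8 B cell markers. These levels only describe the cluster, since the same genes went into the clustering.

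The cells had the profile of resting, mostly unswitched B cells. At least 1 Ighm UMI was found in 87.77% of them, at least 1 Ighd UMI in 61.09%, and both in 55.52%, while 1.301% held a switched isotype without IgM or IgD. Fcer2a (CD23) and Cr2 (CD21), receptors of mature naive B cells, stood at 197.3 and 108.8 CPM. Bcl6, the germinal centre regulator, had 8.839 CPM in B cells, and Mki67, a proliferation marker, had 9.482 CPM in B cells and 106.6 CPM in T cells. Other genes of the germinal centre and cell cycle lists stood higher in B cells, among them Basp1 at 48.69 CPM, Pcna, the DNA polymerase clamp, at 67.01 CPM, and Hmgb2 and Tubb5, which non-dividing cells express too, at 227.2 and 259.4 CPM. Basp1 was called higher in the combination against vehicle (1.35, not called without T cell marker cells), and Pcna was called higher under SHP099. The cells used many receptor genes: 93 heavy chain and 95 kappa V genes were the leading V gene of at least 1 cell, and no V gene led in more than 5.735% of the 1395 cells with a heavy chain V gene or 5.543% of the 4095 with a kappa V gene. The drug targets were scarce at the RNA level. Ptpn11 had 31.34 CPM in B cells and 39.91 CPM in all other cells, Cxcr1 had 0.3214 CPM and Cxcr2 had 9.16 CPM.

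MHC class II genes are the first group of genes compared between treatments below, so their promoters are shown here. Each line gives the 150 bases before the annotated start, 5′ to 3′ on the gene's strand, from RefSeq (GRCm38.p6). H2-Aa lies on the minus strand at chr17:34287824-34287973, and H2-Eb1, H2-Eb2 and H2-Oa lie on the plus strand at chr17:34305717-34305866, chr17:34325525-34325674 and chr17:34092229-34092378. Capitals mark GATTGG or its reverse complement CCAATC, the core of the Y box bound by NF-Y, and CAACNGATG, part of an X box bound by the RFX complex, both searched on both strands and not overlapping each other.
H2-Aa: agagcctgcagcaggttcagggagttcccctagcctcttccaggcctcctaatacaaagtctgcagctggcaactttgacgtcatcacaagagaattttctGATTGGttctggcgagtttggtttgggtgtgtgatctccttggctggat
H2-Eb1: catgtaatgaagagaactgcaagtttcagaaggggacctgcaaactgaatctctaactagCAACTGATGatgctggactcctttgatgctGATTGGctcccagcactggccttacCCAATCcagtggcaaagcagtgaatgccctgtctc
H2-Eb2: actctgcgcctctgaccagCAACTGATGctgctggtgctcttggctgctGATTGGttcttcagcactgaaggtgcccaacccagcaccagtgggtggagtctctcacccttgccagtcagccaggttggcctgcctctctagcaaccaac
H2-Oa: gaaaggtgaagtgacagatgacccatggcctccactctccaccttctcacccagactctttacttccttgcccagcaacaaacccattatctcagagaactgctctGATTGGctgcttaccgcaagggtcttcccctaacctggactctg
Of the 11 genes of the class II list, 8 were counted with a RefSeq promoter, among them H2-DMa, H2-DMb1, H2-DMb2 and H2-Ob. Any promoter of Cd74 was left out of this count, and no motif match of Cd74 was recorded. H2-Ab1 and Ciita are not among the 8 either. GATTGG in either orientation was present within 150 bases of the start in 7 of the 8, and in 10.9% of all 32851 promoters. CAACNGATG was present in H2-Eb1 and H2-Eb2, and in 0.301% of all promoters. These matches describe the letters of the windows and say nothing of which factor was bound in these cells.

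B cells made up a larger share of the cells in SHP099-treated mice than in vehicle-treated mice, but the call was lost under other fits, and the size and the direction of the difference depended on which cells B cells were set against. The share was 7.596, 11.05 and 8.521% in the combination mice, 19.61, 10.64 and 17.61% in the SHP099 mice, 5.438, 10.55 and 7.418% in the SX682 mice and 10, 10.52 and 4.331% in the vehicle mice. All 3 SHP099 values lay above all 3 vehicle values, the lowest by a narrow margin, while the combination and SX682 values overlapped those of vehicle. An exact permutation of the 12 mice between the 4 treatments gave a two-sided p of 0.1246, or 0.1939 after Benjamini-Hochberg adjustment over the 33 clusters, of which 36.4% passed. In edgeR's quasi-likelihood test on cells per cluster, the SHP099 share was higher than that of vehicle by a log2 ratio of 0.94 ± 0.39 (SE), with an adjusted p of 0.0478, and 51.5% of the clusters were called in this comparison. The call ended with limma on logit shares (1.13, adjusted p = 0.0579) and in 9 of the 12 fits that left out 1 mouse, down to 0.64 without vehicle mouse 3 (adjusted p = 0.165). The combination differed from vehicle by 0.13 ± 0.39 (adjusted p = 0.794, 24.2% of clusters called), SX682 from vehicle by -0.09 (adjusted p = 0.875, 3.03% called) and the combination from SHP099 by -0.82 ± 0.39 (adjusted p = 0.263, 9.09% called).

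The share is relative to the other cells of the nodule. With epithelial clusters left out of the total, SHP099 differed from vehicle by 0.70 (adjusted p = 0.15). T cells are elsewhere in this text the 6555 cells of the authors' T cell table outside cluster 1. For the shares and ratios of this paragraph, the 15 cells of that table in cluster 1 were counted too. So counted, T cells were 15.78 ± 3.124% of the combination cells, 21.54 ± 3.168% of the SHP099 cells, 16.56 ± 11.33% of the SX682 cells and 8.155 ± 0.6416% of the vehicle cells (SD, n = 3 each). B cells per 100 T cells averaged 59.7 ± 19.86 in combination mice, 75.29 ± 27.11 in SHP099 mice, 61.96 ± 42.16 in SX682 mice and 100.4 ± 38.33 in vehicle mice (SD, n = 3 each). The log2 ratio of B cells to T cells in SHP099 mice differed from that of vehicle mice by -0.39, with an exact permutation p of 0.5, where 3 mice against 3 cannot go below 0.1. The number of B cells per nodule was not measured.

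**Figure D1:**
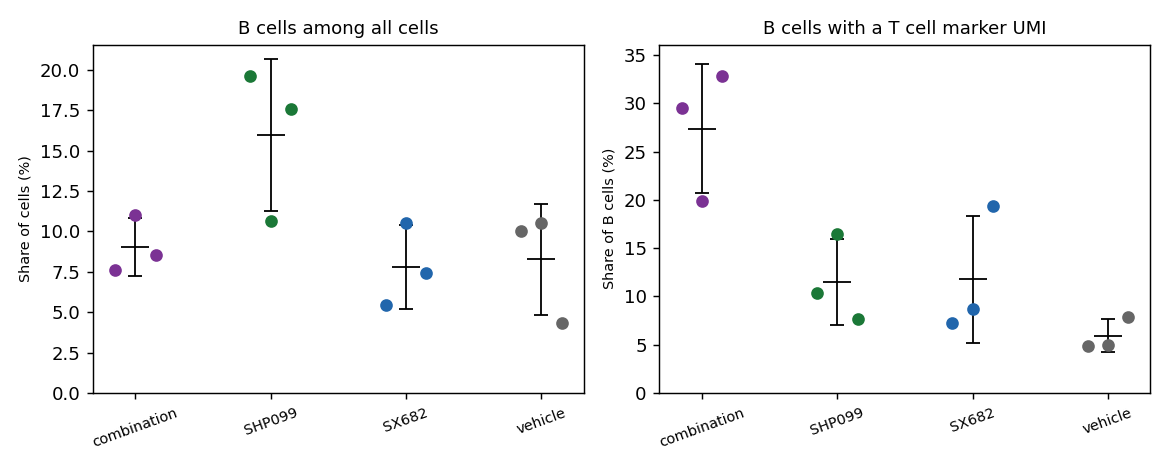
Share of B cells among all cells (left) and share of B cells that hold at least 1 UMI of a T cell marker (right), in percent, for 4 treatments; each point is 1 mouse, the horizontal bar the mean and the whisker 1 SD. The B cell share reached 19.61% in a SHP099 mouse, and the combination mice had T cell marker UMIs in 19.87 to 32.8% of B cells, above the 4.844 to 7.895% of vehicle mice.

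RNA of other cells was found in the B cells and differed between treatments. A UMI of Cd3d, Cd3e, Cd3g, Trac, Trbc2, Cd8a or Cd4 was found for 27.39 ± 6.718% of B cells in the combination mice, 11.5 ± 4.495% in the SHP099 mice, 11.78 ± 6.587% in the SX682 mice and 5.913 ± 1.718% in the vehicle mice (SD, n = 3 each). In the authors' tables, 15 of the B cells are also listed as T cells, 9 of them from the combination. Summed macrophage markers were 337.9 to 451.7 CPM in B cells of the combination mice, 325.1 to 387.6 CPM in SHP099 mice, 556.5 to 955.8 CPM in SX682 mice and 747.5 to 1025 CPM in vehicle mice. Summed tumour epithelial markers were 88.06 to 120.1 CPM in the combination, 26.92 to 50.67 CPM under SHP099, 127.6 to 134.6 CPM under SX682 and 188 to 232.8 CPM under vehicle. Alveolar and airway epithelial markers went the other way, with 196.8 to 274.4 CPM in the combination, 33.65 to 500.4 CPM under SHP099, 178.3 to 232.2 CPM under SX682 and 18.2 to 31.34 CPM under vehicle. NK cell markers summed to 86.02 to 145.8 CPM in the combination, 9.889 to 74.04 CPM under SHP099, 4.452 to 111.5 CPM under SX682 and 6.066 to 21.7 CPM under vehicle. Neutrophil markers reached 2185 to 3471 CPM in the combination, 567.6 to 1999 CPM under SHP099, 521.6 to 2716 CPM under SX682 and 1159 to 3030 CPM under vehicle. Each comparison of genes was therefore also run on the 4001 B cells with no such UMI and no place in the T cell table, an alternative added after the data were seen, and its values stand beside the main ones. Where a named call ended in the 3680 B cells with no UMI of Jchain, Cd3e, S100a8, Krt8 or C1qa, genes of plasma cells, T cells, neutrophils, epithelium and macrophages, this is stated for the genes described in full. Cells in which a B cell and a T cell were captured together were not removed in the main comparison.

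UMI counts of the B cells were summed per mouse, which gave 164864 to 947287 UMIs, and 5826 genes were tested with edgeR's quasi-likelihood test with all 4 treatments in 1 fit. A call is a Benjamini-Hochberg adjusted p below 0.05 over all of these genes, and a gene is said to rise or fall only if it was called. Against vehicle, 358 genes were called in the combination (6.14% of those tested; 192 higher and 166 lower), 577 under SHP099 (9.9%; 236 higher and 341 lower) and 42 under SX682 (0.721%; 10 higher and 32 lower). Without cells holding a T cell marker the counts were 174 for the combination, 519 for SHP099 and 31 for SX682, of which 149, 427 and 26 were shared with the calls on all B cells. The 3 comparisons share their vehicle mice, so their values are given side by side and not correlated. Groups that did not overlap between the 3 treated and the 3 vehicle mice were seen for 28.4% of all genes under SHP099, 22.4% under the combination and 13.7% under SX682. Levels of single genes are CPM scaled by the trimmed mean of M values, and fold changes are log2 values with their SE.

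MHC class II genes fell in B cells under SHP099 and under the combination, and none was called under SX682. Of the 11 genes, 6 fell and none rose under SHP099 (median log2 fold change -0.44, against 0.01 for all genes), and 9 fell and none rose under the combination (median -0.65, against 0.00 for all genes). The shares of all genes called lower were 5.85% under SHP099 and 2.85% under the combination. Under SX682 the median was -0.12.

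H2-Aa, the alpha chain of I-A (chr17:34282744-34287823), had 4023, 3798 and 3883 CPM in combination mice, 4281, 3542 and 4306 CPM in SHP099 mice, 6449, 5645 and 5275 CPM in SX682 mice and 6506, 6826 and 6288 CPM in vehicle mice. The 6 mice that received SHP099, alone or with SX682, were all below the 6 that did not. Against vehicle, H2-Aa fell by 0.75 ± 0.07 on the log2 scale under the combination (adjusted p = 2.48e-08) and by 0.69 ± 0.07 under SHP099 (adjusted p = 4.43e-08). Cd74, the invariant chain, had 13250, 13660 and 12890 CPM in combination mice, 15460, 13020 and 15740 CPM in SHP099 mice, 23010, 21940 and 19550 CPM in SX682 mice and 23580, 24740 and 22480 CPM in vehicle mice. The same 6 mice were the low ones, and the fold changes were -0.83 ± 0.07 for the combination (adjusted p = 2.37e-07) and -0.68 ± 0.07 for SHP099 (adjusted p = 1.87e-06). H2-Eb1, the beta chain of I-E (chr17:34305867-34316674), had 2548, 2387 and 2265 CPM in combination mice, 2892, 2359 and 2801 CPM in SHP099 mice, 3727, 3688 and 3577 CPM in SX682 mice and 3785, 4227 and 3983 CPM in vehicle mice. It fell by 0.74 under the combination and by 0.57 under SHP099, and again no SHP099-treated mouse reached the level of a mouse without it.

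H2-Ab1, the beta chain of I-A (chr17:34257689-34269419), was not called under SHP099 alone, unlike its partner H2-Aa. Whether the responses of H2-Ab1 and H2-Aa differ was not tested. It had 1678, 1723 and 1643 CPM in combination mice, 2322, 2033 and 2327 CPM in SHP099 mice, 2812, 2292 and 2482 CPM in SX682 mice and 2544, 2497 and 2470 CPM in vehicle mice. The combination mice were below all others, while the SHP099 mice were below the vehicle mice and overlapped the SX682 mice. H2-Ab1 fell by 0.57 ± 0.08 in the combination against vehicle (adjusted p = 7.54e-06) and by 0.41 ± 0.08 in the combination against SHP099 (adjusted p = 0.00271). It was the single class II gene called in the combination against SHP099.

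Genes that load and edit the class II peptide also fell. H2-Oa, a chain of the H2-O complex that restrains loading, fell by 0.71 under the combination and by 0.81 under SHP099. H2-DMa and H2-DMb2, chains of the H2-M complex that exchanges the invariant chain fragment for peptide, fell by 0.65 and 0.49 under the combination and by 0.43 and 0.63 under SHP099. H2-Eb2 and H2-Ob were called under the combination, at -0.69 and -0.39.

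In B cells with no T cell marker UMI, the fold changes of the class II genes were smaller and those of the main chains were still called. For the combination they were -0.58 for Cd74, -0.51 for H2-Aa, -0.48 for H2-Eb1, -0.32 for H2-Ab1 and -0.50 for H2-DMa, while H2-DMb2, H2-Eb2, H2-Oa and H2-Ob were no longer called. For SHP099 they were -0.56 for Cd74, -0.59 for H2-Aa and -0.46 for H2-Eb1, and H2-DMa was no longer called (-0.33). The call of H2-Ab1 in the combination against SHP099 was also lost (-0.26, adjusted p = 0.10). Macrophages carry class II as well, and their summed markers in B cells, given above, were lower in combination and SHP099 mice than in vehicle mice. The part of this RNA in the class II values was not tested.

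**Figure D2:**
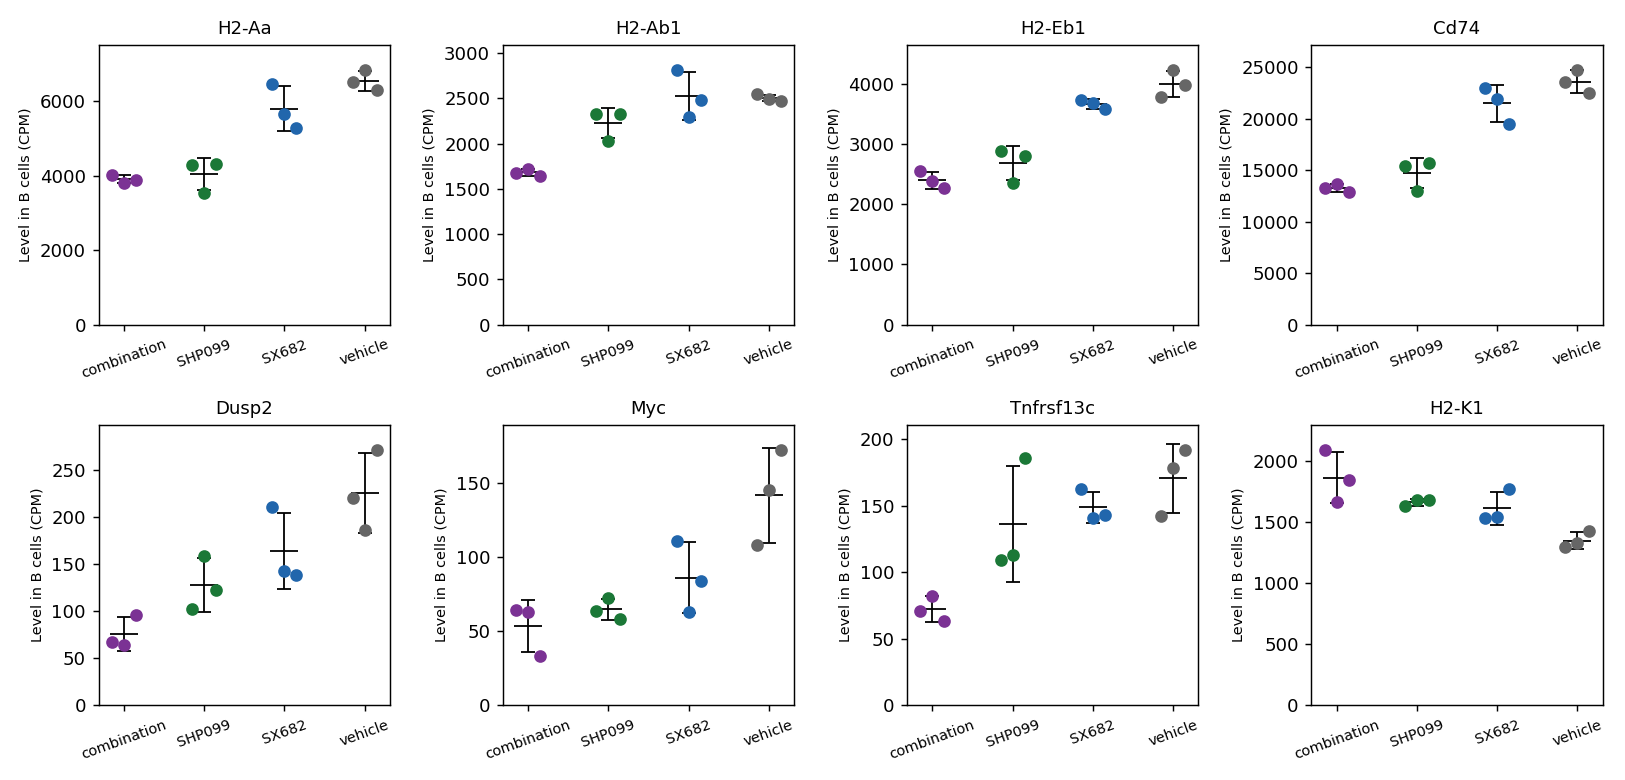
Levels in B cells, in CPM, of 4 MHC class II genes (top) and of Dusp2, Myc, Tnfrsf13c and H2-K1 (bottom) for the 4 treatments; each point is 1 mouse, the horizontal bar the mean and the whisker 1 SD. H2-Aa is at 3542 to 4306 CPM in the 6 mice given SHP099, alone or combined, and at 5275 to 6826 CPM in the other 6, and Tnfrsf13c is at 62.83 to 82.29 CPM in the combination mice, below every other mouse.

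Some genes that follow recent activation fell under SHP099 and the combination. Of 17 such genes tested, 4 fell and none rose under SHP099 (median -0.40, with 5.85% of all genes called lower), and 3 fell and 2 rose under the combination (median -0.52, with 2.85% of all genes called lower and 3.3% higher). Dusp2, an early phosphatase that acts on ERK and other kinases (chr2:127336159-127338376), had 66.58, 64.16 and 95.74 CPM in combination mice, 102.2, 158.1 and 122 CPM in SHP099 mice, 210.7, 142.4 and 138.3 CPM in SX682 mice and 219.9, 185.6 and 270.8 CPM in vehicle mice. All combination mice were below all SHP099 mice, and all SHP099 mice were below all vehicle mice. Dusp2 fell by 1.58 ± 0.20 under the combination (adjusted p = 5.69e-06), by 0.81 ± 0.19 under SHP099 (adjusted p = 0.00417), and by 0.77 ± 0.21 in the combination against SHP099 (adjusted p = 0.0379; 0.076 without T cell marker cells). The difference between the combination and SHP099 was also not called without any 1 of combination mice 1 and 2 and SHP099 mice 2 and 3, where it was -0.60 to -0.80.

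Myc, a driver of growth after activation (chr15:61985391-61990374), had 64.36, 62.77 and 32.91 CPM in combination mice, 63.33, 72.29 and 57.91 CPM in SHP099 mice, 110.5, 62.97 and 83.87 CPM in SX682 mice and 107.8, 145 and 171.7 CPM in vehicle mice. Neither of the SHP099 arms overlapped vehicle. The fold changes were -1.25 ± 0.23 for the combination and -1.04 ± 0.22 for SHP099. Cd69, an early activation antigen that holds lymphocytes in tissue, fell by 0.85 under the combination and by 0.98 under SHP099. Bcl2a1b, a survival gene of the BCL2 family with close copies, fell by 0.82 under SHP099. These 3 genes and Dusp2 kept their calls against vehicle without T cell marker cells. Without cells holding 1 of the 5 genes of other cells, Myc was not called for the combination (-1.01, adjusted p = 0.0864) or SHP099 (-0.86, adjusted p = 0.0723), and Bcl2a1b was at -0.24 under SHP099 (adjusted p = 0.605).

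Other activation genes went the other way. Nr4a3, a nuclear receptor induced by receptor signals (chr4:48045153-48086447), had 55.48, 40.45 and 59.84 CPM in combination mice, against 5.674, 20.35 and 6.605 CPM in vehicle mice. It rose by 2.23 ± 0.49 under the combination (adjusted p = 0.00656), and by 2.62 without T cell marker cells. Without vehicle mouse 1 it was at 1.60 and not called (adjusted p = 0.139). Icam1, an adhesion molecule, rose by 1.07 under the combination and by 1.25 under SX682, and lost both calls without those cells.

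Receptors and factors that place and sustain B cells also differed. Ccr7, which draws B cells towards lymphoid T cell zones, fell by 1.16 under the combination and by 0.66 under SHP099. Klf2, a regulator of the migration of naive lymphocytes, fell by 0.70 under the combination and by 0.63 under SHP099. The calls of Ccr7 and Klf2 in both arms were kept without T cell marker cells. Those of Klf2 under the combination (-0.70 to -0.52) and under SHP099 (-0.63 to -0.44) each ended in 4 of the fits that left out 1 mouse. The same held for Ccr7 under SHP099 (-0.69 to -0.46). Cxcr4, the receptor for CXCL12, had 301.8, 242.7 and 239.3 CPM in combination mice and 410, 544.5 and 521.2 CPM in SHP099 mice. It was lower in every combination mouse than in every SHP099 mouse, by 0.91 ± 0.15 on the log2 scale (adjusted p = 0.000574), and this call was kept without T cell marker cells (-0.87) but not without cells holding 1 of the 5 genes of other cells (-0.99, adjusted p = 0.108). Its fall against vehicle (-0.53) was not (-0.38, adjusted p = 0.34).

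Tnfrsf13c encodes the BAFF receptor, which mature B cells need to survive. It had 71.01, 82.29 and 62.83 CPM in combination mice, 108.9, 113 and 186.2 CPM in SHP099 mice, 162.3, 140.9 and 142.8 CPM in SX682 mice and 141.9, 178 and 191.6 CPM in vehicle mice. The combination mice were below every other mouse. Tnfrsf13c fell by 1.16 ± 0.20 in the combination against vehicle (adjusted p = 0.000269; -0.95 without T cell marker cells) and by 0.86 in the combination against SHP099 (-0.85 without those cells). The call against SHP099 ended without cells holding 1 of the 5 genes of other cells (-0.81, adjusted p = 0.0725) and without combination mouse 1, combination mouse 3 or SHP099 mouse 3 (-0.84, -0.80 and -0.60). Tnfrsf13b, which encodes TACI, fell by 0.67 under the combination and by 0.68 under SHP099, and the call of the combination was lost without those cells. Nfkb1, a subunit of NF-kappaB, rose by 0.60 under the combination and by 0.83 under SHP099, and again the call of SHP099 alone was kept (0.69). No other gene of this list of 9 was called in these 2 comparisons with vehicle.

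Genes that define the B lineage were lower in the combination, and most of these calls went with the T cell marker cells. Of 16 identity genes, 8 fell in the combination against vehicle (Cd37, Cd79a, Cd79b, Fcmr, Ly6d, Ms4a1 and Pax5 among them; median -0.45). Of all genes, 2.85% were called lower in that comparison. Without T cell marker cells 2 of the 8 were still called, Cd79a at -0.53 (-0.79 before) and Cd37, a tetraspanin of lymphocytes, at -0.63 (-0.86 before), and the median was -0.21. Of the 4775 genes tested without those cells, 79 were called lower. Cd79a had 2250, 2568 and 2328 CPM in combination mice, 3172, 2831 and 3202 CPM in SHP099 mice, 3520, 3945 and 3230 CPM in SX682 mice and 4500, 3967 and 3884 CPM in vehicle mice. The combination and the SHP099 mice were below all vehicle mice.

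Under SHP099, Cd37 fell by 1.12 ± 0.11, Cd79a by 0.43 and Cd79b by 0.37, and the last of these calls was lost without T cell marker cells (-0.24). Ighd rose, with 1389, 953.4 and 1022 CPM in SHP099 mice and 892.3, 780.7 and 713.4 CPM in vehicle mice (0.49 ± 0.15, adjusted p = 0.0451; 0.58 without those cells). That call ended without SHP099 mouse 1 or 3 or vehicle mouse 2 or 3, with values of 0.31 to 0.57. Ebf1 was not called under SHP099 (-0.12) or the combination (-0.46, adjusted p = 0.116), and Ms4a1 was called in the combination (-0.47; -0.24 and not called without those cells).

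Of 17 genes of receptor signalling, 5 fell and none rose under the combination (2.85% of all genes were called lower), among them Blnk and Syk, an adaptor and a kinase, at -0.66 and -0.49. Without T cell marker cells Cd79a alone was still called. Under SHP099, Cd79a, Cd79b and Plcg2 fell and none rose. Without those cells Cd79a still fell, Cd79b and Plcg2 were no longer called (Plcg2 at -0.54, adjusted p = 0.0839), and Prkcb and Syk were called higher, at 0.44 and 0.43. Syk, the kinase that the receptor recruits, had 197.5, 283.1 and 233.4 CPM in combination mice and 456.6, 366 and 409.5 CPM in SHP099 mice. It was lower in the combination than under SHP099 by 0.78 ± 0.14 (adjusted p = 0.00063), with no overlap of the mice, and by 0.66 without those cells. Inpp5d, the lipid phosphatase SHIP1 that opposes the receptor, rose by 0.73 ± 0.16 under SHP099 (0.80 without those cells) and was the single gene called against vehicle among 9 inhibitory coreceptors and phosphatases. Ptpn11, the target of SHP099, was not called in either arm (0.08 under SHP099 and -0.59 under the combination, adjusted p = 0.915 and 0.381).

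Interferon-response genes and MHC class I genes rose in part of their members. Of 12 type I interferon response genes tested of 24 on the list, 3 rose under the combination (Bst2 and Ifi203 among them) and 4 under SHP099 (Ifi203, Ifi209 and Sp100 among them), and none fell. Of 12 MHC class I genes, B2m, H2-K1, H2-T23 and Tap1 rose under the combination, by 0.31 to 0.74, and H2-K1 and H2-T23 rose under SHP099, while Psmb8, a subunit of the immunoproteasome, fell by 0.52. The shares of all genes called higher were 3.3% under the combination and 4.05% under SHP099. H2-K1, a class I heavy chain with close copies, had 2084, 1661 and 1840 CPM in combination mice, 1627, 1674 and 1680 CPM in SHP099 mice, 1527, 1535 and 1768 CPM in SX682 mice and 1289, 1325 and 1420 CPM in vehicle mice. Vehicle mice were lowest, and H2-K1 rose by 0.47 under the combination and by 0.31 under SHP099. H2-T23, a non-classical class I gene, rose by 0.60 under the combination and by 0.88 under SHP099. Without T cell marker cells, H2-K1 was still called for the combination and H2-T23 for SHP099. Tap1, B2m and Bst2 were no longer called for the combination.

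Housekeeping groups moved in part. Of all genes, 5.85% were called lower and 4.05% higher under SHP099, and 2.85% lower and 3.3% higher under the combination. Glycolysis and hypoxia genes fell under SHP099 in 4 of 14 members (Aldoa -0.68, Bnip3 -1.41, Pgk1 -0.85 and Tpi1 -1.37; median -0.52), none rose, and the 4 calls were kept without T cell marker cells; under the combination Aldoa alone was called (-0.59). Heat shock genes rose under SHP099 in 3 of 10 members (Hsp90aa1 0.42, Hspe1 0.60 and Dnaja1 0.84), and the 3 calls were kept without T cell marker cells. The calls of Hsp90aa1 (0.30 to 0.43) and Hspe1 (0.47 to 0.55) each ended in 3 of the fits that left out 1 mouse. Hsp90aa1 was also not called with DESeq2 or without cells holding 1 of the 5 genes of other cells. Under the combination Dnajb1 fell by 1.45, and 4 of the 10 were lower than under SHP099 (1.08% of all genes were). Genes of oxidative phosphorylation rose under the combination in 6 of 16 members, of which Atp5e and Uqcr11 were still called without T cell marker cells. Uqcr11 was not called with DESeq2 or in 5 of the fits that left out 1 mouse (0.32 to 0.63). Atp5e, a subunit of ATP synthase, was at 1218, 1356 and 1203 CPM in combination mice, 1210, 1310 and 1340 CPM in SHP099 mice, 780.6, 689.7 and 659.6 CPM in SX682 mice and 879.5, 877.4 and 964.4 CPM in vehicle mice. Atp5e was above vehicle in all 6 mice given SHP099, by 0.48 under the combination and 0.51 under SHP099. The mitochondrial transcripts mt-Nd3 and mt-Nd4 rose by 0.99 and 0.41 under the combination and by 1.41 and 0.53 under SHP099. The median mitochondrial share of a B cell was 3.265 to 3.609% in combination mice, 3.688 to 4.342% in SHP099 mice, 2.908 to 3.055% in SX682 mice and 2.223 to 2.743% in vehicle mice. The part of RNA quality in these values was not tested.

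Ribosomal protein genes split by member. Of 78 tested, 20 rose and 11 fell under the combination, 24 rose and 24 fell under SHP099, and none rose and 18 fell under SX682. Of all genes, 3.3% rose and 2.85% fell under the combination, and 4.05% rose and 5.85% fell under SHP099. The shares under SX682 were 0.172% and 0.549%. Rpl41 had 8184, 8062 and 7635 CPM in combination mice, 9446, 8671 and 9359 CPM in SHP099 mice, 4169, 3706 and 4048 CPM in SX682 mice and 5172, 5119 and 5284 CPM in vehicle mice, so that the 4 captures did not overlap. Rplp0 went the other way under SHP099, at -0.67 ± 0.08. Many ribosomal protein genes have near-identical copies, and how the counting shared reads between them is something the sources used here do not state.

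Outside the lists, the largest called changes under SHP099 among genes with an average of at least 5 log2 CPM and groups that did not overlap included genes of other cells and genes that B cells express. Krt8 and Slpi, epithelial genes, fell by 2.60 and 2.67 and C1qb, a macrophage gene, by 2.78, beside the lower epithelial and macrophage markers given above. Alox5ap, which presents arachidonic acid to 5-lipoxygenase, had 30, 31.63 and 16.55 CPM in SHP099 mice and 95.05, 89.01 and 79.26 CPM in vehicle mice (-1.75 ± 0.25, adjusted p = 5.59e-06). Ddit4, a stress-induced inhibitor of mTORC1, fell by 2.12. Cirbp, a cold-inducible RNA-binding protein, fell by 1.30 under the combination, by 1.43 under SHP099 and by 1.06 under SX682, with 74.46 to 169.2 CPM over the 9 treated mice and 224.6 to 366 CPM in vehicle mice. Higher genes included Hnrnpa0, an RNA-binding protein, at 264.4, 239.5 and 264.8 CPM in SHP099 mice and 97.88, 114.4 and 66.05 CPM in vehicle mice (1.39 ± 0.17, adjusted p = 2.02e-07). Serinc3, a membrane protein, had 971.1, 711.6 and 881.1 CPM in SHP099 mice and 375.9, 376.4 and 369.9 CPM in vehicle mice (1.19 ± 0.12, adjusted p = 1.38e-08). All calls of this paragraph for SHP099 were kept without T cell marker cells. Without cells holding 1 of the 5 genes of other cells, Alox5ap was at -0.78 and not called (adjusted p = 0.398).

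In the combination, T cell genes were among the largest increases of genes with an average of at least 5 log2 CPM. Trac, Lat and Cd3d rose by 2.40, 2.35 and 2.08 against vehicle, with Trac at 108.7, 57.19 and 101.7 CPM in combination mice and 18.44, 12.72 and 13.21 CPM in vehicle mice. These genes are among those that the alternative without T cell marker cells removes or no longer tests. Nr4a2, a nuclear receptor related to Nr4a3, rose by 2.24 and was not called without those cells (2.14, adjusted p = 0.0906). Sdc4, a heparan sulfate proteoglycan, fell by 1.09 ± 0.19 and Plk2, a polo-like kinase, by 1.51 ± 0.34, and both were still called without those cells (-0.93 and -1.67). The call of Plk2 ended without combination mouse 2 or vehicle mouse 2 (-1.24 and -1.29).

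**Figure D3:**
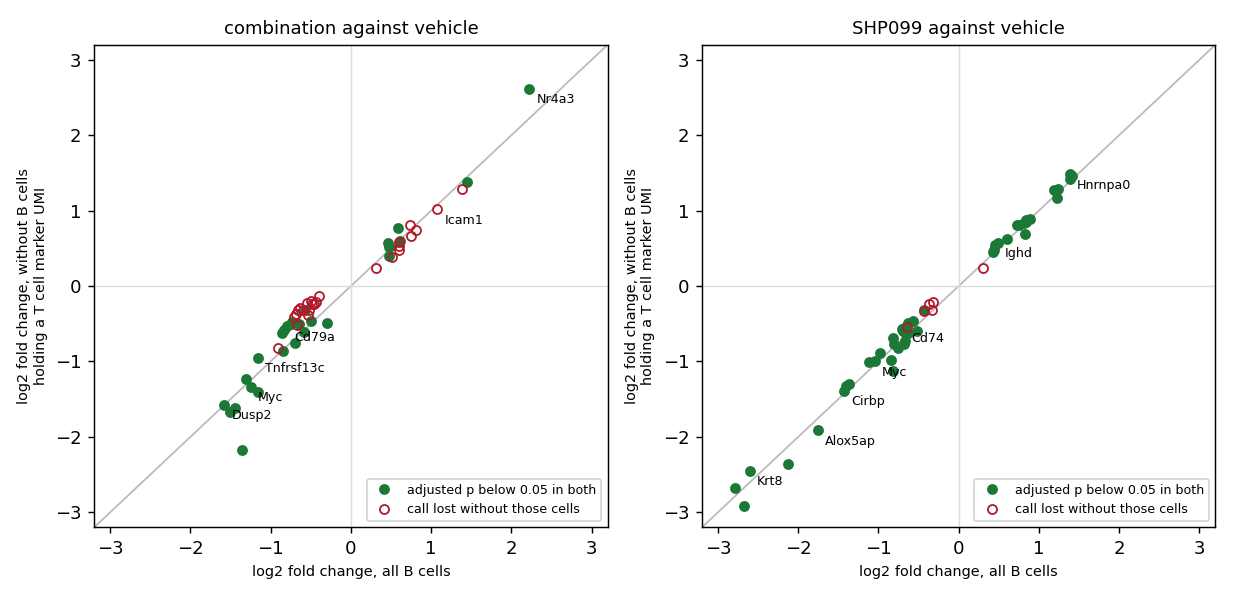
Log2 fold change against vehicle over all B cells (horizontal) and over B cells with no T cell marker UMI (vertical), for 52 called genes under the combination (left) and 52 under SHP099 (right), taken from the lists and the largest changes; filled points passed the test in both, open points lost the call, and the grey line marks equal values. Of the 52 genes, 27 kept the call under the combination and 46 under SHP099, and all kept their direction. A further 4 named genes under the combination and 1 under SHP099 were not tested without those cells and are not shown.

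Few genes were called in B cells under SX682 alone, which does not show that these cells were equal to those of vehicle. Of all genes, 0.549% were lower and 0.172% higher under SX682. The 32 lower genes included 18 ribosomal protein genes, and the 10 higher ones included Icam1 and the heat shock gene Dnaja1 (0.68). With ribosomal protein and mitochondrial genes left out before scaling, 4 genes were called. Cd55, a complement regulator of the cell surface, had 169.2, 233.9 and 147.3 CPM in SX682 mice and 295.1, 320.4 and 270.8 CPM in vehicle mice (-0.68 ± 0.15, adjusted p = 0.0185; -0.55 and not called without T cell marker cells). Chchd2, a mitochondrial protein, rose by 0.56 (0.51 and not called without those cells). No gene of the class II, BAFF receptor, receptor signalling or B identity lists was called over all B cells, while Ebf1 was called lower without T cell marker cells (-0.49, adjusted p = 0.025; -0.56, adjusted p = 0.208 over all B cells). Of all genes, 479 had an unadjusted p below 0.05.

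The combination differed from SHP099 in 163 genes (2.8%; 100 or 1.72% higher and 63 or 1.08% lower) and from SX682 in 204 (3.5%; 129 or 2.21% higher and 75 or 1.29% lower). The mice did not overlap in 22% of all genes in the combination against SHP099 and in 19.2% against SX682. A non-additive term, the difference between the combination and SX682 minus that between SHP099 and vehicle, was called for 75 genes (1.29%; 0.875% positive and 0.412% negative). Without T cell marker cells these counts were 95 and 140. Against SHP099, the genes with a role in B cells that were lower in the combination, and still called without those cells, included Tnfrsf13c, Cxcr4, Syk, Scd1 and P2ry10. P2ry10, a lysophospholipid receptor, had 90.99, 101.8 and 92.75 CPM in combination mice and 182.2, 180.7 and 275.1 CPM in SHP099 mice (-1.14 ± 0.17, adjusted p = 0.000119). Xbp1, a regulator of secretory differentiation, was higher in the combination, at 99.86, 101.8 and 50.86 CPM against 36.66, 49.7 and 45.5 CPM in SHP099 mice (1.04 ± 0.23, adjusted p = 0.00921). The call of Xbp1 ended without cells holding 1 of the 5 genes of other cells, Jchain among them (0.77, adjusted p = 0.209), and without combination mouse 1 or 2 or SHP099 mouse 1 (0.85 to 0.95). Plasma cell markers summed to 463.2 to 2355 CPM in B cells of combination mice and to 429.2 to 509.3 CPM in SHP099 mice, and their part in this value was not tested otherwise. Against SX682, Cd74, H2-Aa, H2-Ab1, H2-Eb1 and H2-DMa were lower in the combination by 0.70, 0.57, 0.59, 0.61 and 0.62 on the log2 scale, and all of these were still called without T cell marker cells.

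The fall of class II in the combination was set against the T cells of the same mice. The difference between the B cell and the T cell response was tested with limma on the difference of log2 CPM within each mouse, over 5578 genes, of which 1.17% were called for the combination and 0.0717% for SHP099. H2-Ab1 changed by -0.59 in B cells and by 0.83 in T cells under the combination, a difference of -1.42 ± 0.17 (adjusted p = 1.81e-05). The differences were -1.32 for H2-Eb1 and -1.43 for Cd74, and -1.16, -1.06 and -1.17 for H2-Ab1, H2-Eb1 and Cd74 once B cells with a T cell marker were left out, all called. H2-Aa was not called (-1.29, adjusted p = 0.20). T cells should hold little class II: over all mice H2-Ab1, H2-Eb1 and Cd74 stood in them at 1.86, 1.48 and 1.57% of the B cell level. Unscaled H2-Ab1 in them was 57.64, 58.12 and 83.72 CPM in combination mice and 32.34, 32.87 and 38.28 CPM in vehicle mice. T cells with a UMI of a B cell marker were 7.446 ± 0.8272% in the combination mice and 5.074 ± 0.8057% in the vehicle mice (SD, n = 3 each), these cells were not left out, and the part of carried-over RNA in the T cell values was not tested. Cxcr4 changed by -0.53 in B cells and by 0.63 in T cells (difference -1.16, adjusted p = 0.000337; -1.01 without those cells).

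Under SHP099 Myadm, S100a6 and Apoe were among the 4 genes whose response differed between B and T cells. For Cd74 and H2-Aa the responses were -0.69 and -0.71 in B cells and -0.64 and -0.77 in T cells, with differences of -0.05 and 0.06 that were not called. Cd37 changed by -1.14 in B cells and -1.22 in T cells, Cirbp by -1.39 and -1.63, Serinc3 by 1.16 and 1.35, and Hnrnpa0 by 1.45 and 1.32, and none of these differences was called. A miss of the threshold does not show that the responses were equal.

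The balance of light chains did not pass the test over all B cells. It passed in B cells with no UMI of 5 genes of other cells, a selection added after the data were seen. Lambda constant regions made up 36.59, 42.12 and 57.08% of the light chain UMIs in all B cells of the combination mice, 48.18, 43.45 and 44.13% in SHP099 mice, 52.29, 54.99 and 48.53% in SX682 mice and 53.28, 58.62 and 60.72% in vehicle mice, with an exact permutation p of 0.115 over the 4 treatments, or 0.20 adjusted over 5 measures. In combination mouse 1, 2 cells rich in Igha held 806 of the 2225 kappa UMIs. In combination mouse 2, 2 such cells held 914 of the 2882 kappa UMIs. In the 3680 B cells with no UMI of the 5 genes of other cells, the lambda share averaged 53.23 ± 3.359% in combination mice, 45.34 ± 2.147% in SHP099 mice, 53.23 ± 1.144% in SX682 mice and 59.54 ± 1.921% in vehicle mice (SD, n = 3 each). The SHP099 mice were lowest and the vehicle mice highest without overlap, and the exact permutation p adjusted over the 5 measures was 0.00487. A cell expresses 1 light chain as a rule, yet 78.71% of the B cells held UMIs of both kappa and lambda, so the share is a share of RNA and not of kappa and lambda cells. Among single constant genes, Iglc3, which has a near copy in Iglc2, fell by 0.33 under SHP099.

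**Figure D4:**
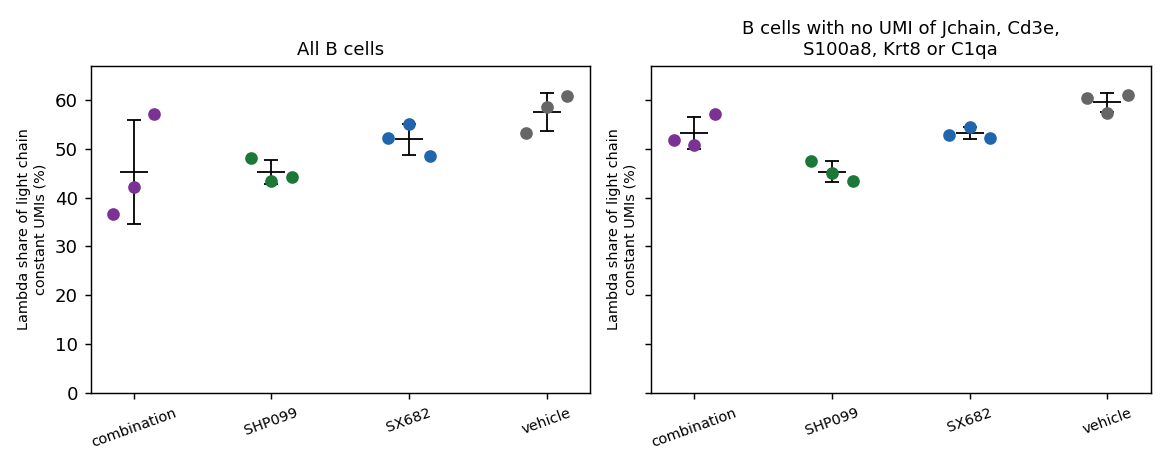
Lambda share of kappa and lambda constant region UMIs, in percent, in all B cells (left) and in B cells with no UMI of 5 genes of other cells (right), for the 4 treatments; each point is 1 mouse, the horizontal bar the mean and the whisker 1 SD. On the right the SHP099 mice lie at 43.33 to 47.6% and the vehicle mice at 57.35 to 60.93%, and the spread of the combination mice is smaller than on the left.

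Switched heavy chains were rare apart from IgA in a few cells. In the combination mice switched constant regions were 28.73, 39.61 and 1.466% of the heavy chain UMIs, against 0.8357 to 2.173% in SHP099 mice, 0.6858 to 5.027% in SX682 mice and 2.018 to 2.98% in vehicle mice. Only 4 cells, 2 in each of the first 2 combination mice, held at least 100 Igha UMIs each, and together they held 1879 of the 2144 Igha UMIs. Without cells holding any of the 5 genes above, the shares were 3.782, 1.891 and 1.045% in the combination mice. The Ighd share of IgD and IgM UMIs and the UMIs per B cell did not pass (exact permutation p over the 4 treatments, adjusted over 5 measures, 0.405 and 0.332). Median UMIs per B cell averaged 1055 ± 144.5 in combination mice, 1012 ± 22.91 in SHP099 mice, 1268 ± 289.6 in SX682 mice and 998.2 ± 138.8 in vehicle mice (SD, n = 3 each).

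Some of the named genes share exon positions with another annotated gene (Aldoa, Alox5ap, Bnip3, Cd37, Cd55, Dnaja1, H2-DMa, H2-Oa, Krt8, Pax5, Serinc3 and Tpi1 among them) or have near-identical copies (Bcl2a1b, H2-K1, H2-T23, Ifi203, Ifi209 and Iglc3), and their values are uncertain to that extent.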

How the data were processed

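Cells came from 12 mice in 4 captures of the 10x 5′ V(D)J kit, 3 tagged mice to a capture, per the labels. The deposited matrix holds UMI counts of 32285 genes in 44986 cells; the submitters' processing notes name mm10 and Cell Ranger, with no version, counting setting or doublet removal stated there. A deposited table gives each cell's mouse and cluster, and no cell of the cluster described has under 500 UMIs. Cells were summed per mouse (at least 10 cells) and tested in R 4.3.3 with edgeR 4.0.16 (TMM, filterByExpr, robust quasi-likelihood F test) on treatment means, and with limma 3.58.1 for B against T cells (prior count 2); DESeq2 1.42.0 was an alternative. Single values per mouse were compared by exact permutation of 12 mice (15400 partitions, smallest p 6.494e-05), two-sided. The tests of genes were tried on simulated data with 200 changed genes, and the edgeR test of shares on simulated cell numbers with a changed cluster. Symbols matched GENCODE vM21 for 31424 genes. Of all cells, 2022, among them 186 B cells, share a raw barcode with a cell of another capture, and 0 within a capture. Depth was 164864 to 947287 UMIs of B cells per mouse, with a biological coefficient of variation of 13.4%. Doublets were not called; cells with markers of another type were left out in alternatives.

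The members and gene lists were chosen with earlier results of these data known. Named genes were, per comparison, up to 12 each way by size of change among called genes with an average of at least 5 log2 CPM and groups that do not overlap, up to 4 of each list (all of lists of up to 8), the markers and the drug targets; other called list members and contrasts were named after their values were seen. Hashtag reads, receptor sequences, the bulk samples and the neutrophil table were not used here. Some called members of the lists are not reported here.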

Additional observations from a re-analysis of the deposited data

Results flagged for a closer look

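Flagged here are genes named by their size of change whose difference between the combination and SX682 is unlike that between SHP099 and vehicle, by a term for non-additivity in the same edgeR fit (75 of 5826 genes, 1.29%, 51 positive and 24 negative). The term is the first difference minus the second on the log2 scale, and each adjusted p is over all genes. Alox5ap, with lower values under SHP099 alone than in the other 3 treatments, had a term of 1.88 ± 0.32 (SE; adjusted p = 0.000734). Ifitm3, an interferon-induced membrane protein, had a term of 1.99 ± 0.32 (adjusted p = 0.000429), with 144.2, 96.24 and 95.74 CPM in combination mice, 27.78, 27.11 and 35.16 CPM in SHP099 mice, 72.53, 59.97 and 65.74 CPM in SX682 mice and 76.6, 58.49 and 66.05 CPM in vehicle mice. Krt8 and Slpi, genes of epithelium and, for Slpi, also of myeloid cells, had terms of 2.66 and 2.95, beside summed tumour epithelial markers of 26.92 to 50.67 CPM in B cells of SHP099 mice and 188 to 232.8 CPM in those of vehicle mice. The part of this RNA in the values was not tested. Bcl2a1b, which has close copies, had a term of 1.29. Serinc3 and Dnaja1 were higher under SHP099 than under vehicle by 1.19 and 0.84, and their terms were -1.11 and -1.24. Cyth1, an exchange factor for ARF proteins, had a term of -1.07. All 8 terms were still called without B cells holding a T cell marker, where they were 1.73 for Bcl2a1b, 2.32 for Alox5ap, 2.38 for Ifitm3, 2.76 for Krt8, 4.46 for Slpi, -1.04 for Serinc3, -1.38 for Dnaja1 and -1.38 for Cyth1. Without cells holding a UMI of 5 genes of other cells, 3 of the 8 lost the call: Alox5ap (0.08, adjusted p = 0.995), Bcl2a1b (0.59, adjusted p = 0.585) and Ifitm3 (2.06, adjusted p = 0.0857). Krt8 is itself 1 of the 5 genes, so it could not be tested in that selection. Bcl2a1b and Cyth1 each lost it in 9 of the 12 fits that left out 1 mouse. None of the class II genes was called for this term. Groups of 3 mice are too small for a test of single outlying mice.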

How the results depend on the processing

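With 114 B cells drawn per mouse, the number in the smallest sample, 170 genes were called for SHP099 against vehicle, 7 for SX682, 72 for the combination, 9 for the combination against SHP099, 88 against SX682 and 10 for the non-additive term. DESeq2 called 295 for SHP099, 207 for the combination and 93 for the combination against SHP099. With no filter on low counts, 75 were called for SX682, 262 for the combination against SHP099 and 115 for the non-additive term. Of alternatives chosen after seeing the data, leaving out cells with a T cell marker gave 174 for the combination and 95 for the combination against SHP099; leaving out cells with a UMI of 5 genes of other cells gave 216, 60 and, for the non-additive term, 44; leaving out cells over 3000 UMIs gave 118 for that term; and leaving out ribosomal and mitochondrial genes, so that fewer genes were tested, gave 4 for SX682 and 36 for that term. Without any single mouse the counts ranged from 326 to 620 for SHP099 (lowest without vehicle mouse 1), 22 to 49 for SX682, 157 to 391 for the combination (lowest without vehicle mouse 1), 49 to 208 for the combination against SHP099 (lowest without SHP099 mouse 3), 130 to 217 against SX682 and 31 to 87 for the non-additive term. B against T cells gave 0 to 17 for SHP099 and 26 to 101 for the combination without any single mouse, 1 for SHP099 with a prior count of 0.5, and 2 and 13 without T cell marker cells. The B cell share under SHP099 lost its call with limma on logit shares (1.13), with the replicate block (1.01) and without epithelial clusters (0.70), and as a ratio to T cells the difference was -0.39. Without any single mouse the share was 0.64 to 1.17. The share in the combination was -0.03 without epithelial clusters and -0.72 as a ratio to T cells, and without any single mouse -0.18 (without vehicle mouse 3) to 0.33, with -0.04 without combination mouse 2. The share under SX682 was -0.39 to 0.12 without any single mouse, positive at 0.12 without SX682 mouse 1, 0.07 without vehicle mouse 1 and 0.12 without vehicle mouse 2. The combination against SHP099 was -1.04 to -0.64 and against SX682 0.01 to 0.50. The exact permutation p adjusted over its family, without any single mouse, was 0.117 to 0.449 for the share, 0.253 to 0.707 for Ighd, 0.0052 to 0.395 for lambda (lowest without combination mouse 3), 0.023 to 0.497 for switched isotypes and 0.238 to 0.707 for UMIs per cell; lambda gave 0.00487 without cells holding any of 5 genes. The cause of these changes was not tested. Same-numbered mice did not deviate together (r of -0.06 to 0.07), so the numbers do not pair mice; a fit with the replicate block called 577 genes for SHP099, 38 for SX682 and 346 for the combination. Of 2976 values of named genes over all settings, 2445 stayed on their side of the threshold, 531 lost the call and 0 turned sign. Most of these genes were named because they were called in the main fit, and the settings reuse the same mice. The count is therefore no independent test of them, and genes not tested in a setting are not in it.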
